A study of Mus musculus with 15 samples.

Results

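Resident cardiac fibroblasts, the interstitial cells that make and maintain the collagen matrix of the heart, were followed through 10 marker genes measured in RNA from whole mouse hearts. The markers were Pdgfra, Tcf21, Pi16, Scara5, Dpt, Dpep1, Smoc2, Gsn, Abca8a and Pcolce. They were chosen by gene symbol, with earlier results of these data known, and are 10 of the 36727 genes in the table of normalized counts. All 10 were above the limit on low values (3 or more hearts with 10 or more normalized counts), as were 16690 genes in all. The study asked how extra Sirtuin 5 (SIRT5), a mitochondrial enzyme that removes acyl groups from lysines, affects the response of the heart to transverse aortic constriction (TAC), a surgical narrowing of the aorta that raises the pressure load on the left ventricle. Whole hearts of 15 male mice, 1 library each, were sequenced 4 weeks after surgery, at an age at the study's start of 4 to 8 months: 4 SIRT5OE TAC, 3 SIRT5OE sham, 4 WT TAC and 4 WT sham hearts. SIRT5OE mice carried a Sirt5 transgene with a CAGGS promoter in the Col1a1 locus, built in 1 embryonic stem cell clone, whose stop cassette had been deleted by Sox2-Cre, so that overexpression was whole-body and not limited to cardiomyocytes or fibroblasts. WT mice were littermates, and sham mice had the operation without the constriction.

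Fibroblasts of the adult heart share the growth factor receptor PDGFRA and the transcription factor TCF21, which in mouse is needed for the epicardial cells that form them. After pressure overload a share of them take on an activated state, with high Postn and fibrillar collagen, while others keep a quiescent or adventitial state, for which Pi16, Dpt and Scara5 are used as markers. The markers are therefore not all expected to label the same cells, and several of them (Gsn, Dpep1 and Abca8a) are also expressed outside fibroblasts.

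The labels were checked with Sirt5 itself, at 35645 ± 5935 normalized counts in SIRT5OE TAC, 40866 ± 1972 in SIRT5OE sham, 1893 ± 239 in WT TAC and 2169 ± 154 in WT sham hearts (SD; n = 4, 3, 4 and 4). Cardiomyocyte markers, as a heart should have, summed to between 1800051 and 4088569 normalized counts in every heart. The summed normalized counts of a heart were between 56233957 and 74282028, of which transcripts of the mitochondrial genome made up 27.9% to 35% in SIRT5OE TAC (lowest in replicate 3), 33.8% to 34.6% in SIRT5OE sham, 19.8% to 27.2% in WT TAC and 34.7% to 36.2% in WT sham hearts. The part of this share in the results was not tested beyond the fit scaled without these transcripts. The values do not keep the number of reads, so the number of hearts sets the precision. SIRT5OE TAC replicate 3 stood apart from the other SIRT5OE TAC hearts: Postn was 104152 in it and 14311 to 18469 in the others. WT TAC replicate 3 had the lowest Postn of the WT TAC hearts, at 38821 with 58814 to 113834 in the others, but did not stand apart for this gene. It did for Pi16, at 6730 with 12898 to 14143 in the other WT TAC hearts. Values without these hearts stand beside several of the results.

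Per kilobase of the principal transcript, the measure on which levels of different genes can be compared, Gsn was the most abundant marker by far, at 22735 ± 1245 normalized counts per kb in WT sham hearts (SD, n = 4). Dpt followed at 2557 ± 117, and then Smoc2 at 1505 ± 122, Dpep1 at 1350 ± 89.7 and Pcolce at 1313 ± 84. These 3 neighbours were within each other's spread between hearts. Abca8a stood at 813 ± 38.1, Pi16 at 620 ± 63.1, Scara5 at 462 ± 24, Pdgfra at 323 ± 43.2 and Tcf21, as is usual for a transcription factor, lowest at 287 ± 45.1. The last 2 were again within each other's spread. In WT TAC hearts the order was another one, with Pcolce at 4077 ± 864 and Pi16 at 2974 ± 869 per kb next below Gsn, and Scara5 last at 83 ± 55. In SIRT5OE TAC hearts Scara5 was also last, at 253 ± 115 per kb, with Tcf21 at 347 ± 64.4.

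**Figure D1:**
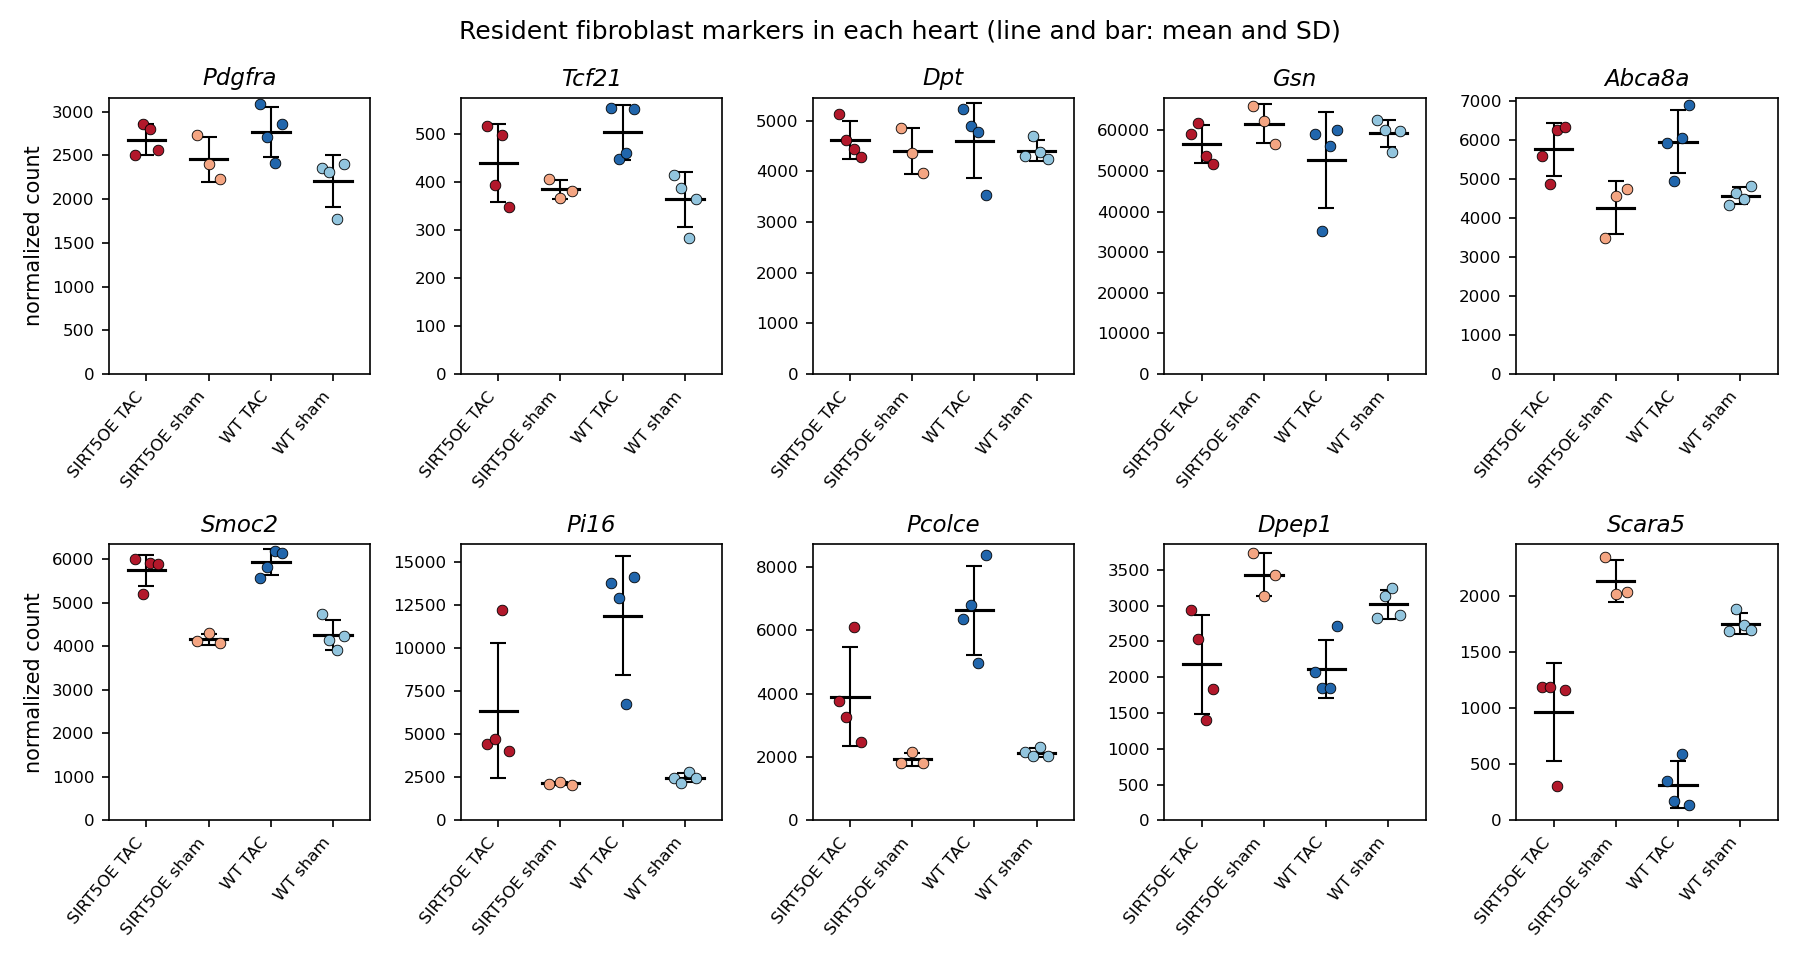
Normalized counts (y axes, from 0) of the 10 markers in each heart, with groups on the x axes as SIRT5OE TAC (n = 4), SIRT5OE sham (n = 3), WT TAC (n = 4) and WT sham (n = 4). Points are hearts, lines are group means and bars are the SD. Pi16 and Pcolce stand high and Scara5 low in TAC hearts, with the WT TAC means farthest from the shams, while Dpt and Gsn overlap across groups. For Pi16, Pcolce and Scara5 a single SIRT5OE TAC heart, replicate 3, lies among the WT TAC hearts.

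Pdgfra and Tcf21, the defining receptor and transcription factor of the lineage, were modestly higher after TAC in WT hearts. Pdgfra had 2505, 2859, 2797 and 2559 normalized counts in SIRT5OE TAC hearts, against 2735, 2399 and 2226 in SIRT5OE sham hearts, which overlapped (log2 fold change 0.13, 95% interval -0.12 to 0.38, limma with Benjamini-Hochberg adjustment, adjusted p = 0.565). It had 3089, 2709, 2415 and 2856 in WT TAC hearts, against 2358, 2307, 1769 and 2397 in WT sham hearts. The WT groups did not overlap, and the log2 fold change was 0.33 (SE 0.11, limma adjusted p = 0.0295). Tcf21 had 517, 395, 499 and 348 in SIRT5OE TAC hearts, against 406, 367 and 381 in SIRT5OE sham hearts, and the change did not pass the test (0.17, 95% interval -0.18 to 0.53). In WT TAC hearts it had 555, 448, 461 and 553, against 416, 389, 284 and 366 in WT sham hearts. The WT log2 fold change was 0.48 (SE 0.15, limma adjusted p = 0.0256), again with no overlap between hearts. Both WT calls rest on few hearts. WT sham replicate 3 was the lowest heart for either gene, and without it the limma adjusted p was 0.102 for Pdgfra and 0.087 for Tcf21. It was 0.0863 for Pdgfra and 0.0663 for Tcf21 without WT TAC replicate 1, and 0.063 for Pdgfra and 0.0655 for Tcf21 without WT TAC replicate 4.

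Pcolce, which encodes the secreted enhancer of the protease that trims procollagen I before it assembles into fibrils, rose after TAC in both genotypes. It had 3770, 3259, 6099 and 2473 normalized counts in SIRT5OE TAC hearts, against 1817, 2142 and 1807 in SIRT5OE sham hearts. In WT TAC hearts it had 6344, 6812, 4978 and 8382, against 2168, 2039, 2314 and 2018 in WT sham hearts. Every TAC heart was above every sham heart of its genotype. The log2 fold change was 0.94 in SIRT5OE hearts (SE 0.22, limma adjusted p = 0.0256; 0.70 and 0.0484 without SIRT5OE TAC replicate 3) and 1.61 in WT hearts (SE 0.21, limma adjusted p = 7.08e-05). The exons of Pcolce overlap those of Fbxo24 on the same strand, but Fbxo24 averaged 20.1 to 29.2 normalized counts in the 4 groups.

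Smoc2, a secreted calcium-binding matricellular protein, rose by about the same size in both genotypes. SIRT5OE TAC hearts had 5991, 5204, 5898 and 5876 normalized counts, against 4108, 4291 and 4070 in SIRT5OE sham hearts. WT TAC hearts had 5554, 5823, 6182 and 6148, against 4741, 4152, 3920 and 4232 in WT sham hearts. The lowest TAC heart of either genotype stood above every sham heart. It rose by 0.46 on the log2 scale in SIRT5OE hearts (SE 0.08, limma adjusted p = 0.00762) and by 0.48 in WT (SE 0.08, limma adjusted p = 0.000317). The SIRT5OE call ended without SIRT5OE sham replicate 3 (limma adjusted p = 0.0536).

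Dpt, which encodes dermatopontin, a matrix protein that binds decorin and collagen, gave no change that passed the test. It had 4274 to 5135 normalized counts in SIRT5OE TAC, 3960 to 4863 in SIRT5OE sham, 3526 to 5231 in WT TAC and 4250 to 4697 in WT sham hearts. The hearts of all 4 groups overlapped, and the log2 fold change after TAC was 0.07 in SIRT5OE hearts (95% interval -0.18 to 0.33) and 0.05 in WT hearts (95% interval -0.19 to 0.29). Gsn, which encodes the actin-severing protein gelsolin in a cytoplasmic and a secreted form, made up 46.4% to 72.1% of the summed normalized counts of the 10 markers in a heart and also overlapped across groups. Its log2 fold change after TAC was -0.12 in SIRT5OE hearts (95% interval -0.45 to 0.21) and -0.20 in WT hearts (95% interval -0.51 to 0.10). WT TAC replicate 2 alone was low, at 35123 normalized counts where the other WT TAC hearts had 56131 to 60153, and without it the WT change was -0.02.

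Pi16, a secreted peptidase inhibitor that marks adventitial and other quiescent fibroblasts, rose more than any other of the 10 markers. SIRT5OE TAC hearts had 4444, 4725, 12202 and 4007 normalized counts, against 2137, 2253 and 2038 in SIRT5OE sham hearts. WT TAC hearts had 13747, 12898, 6730 and 14143, against 2481, 2167, 2784 and 2479 in WT sham hearts. The TAC and sham hearts of either genotype were apart, with SIRT5OE TAC replicate 3 among the WT TAC values and WT TAC replicate 3 the lowest WT TAC heart. The log2 fold change was 1.40 in SIRT5OE hearts (SE 0.31, limma adjusted p = 0.0201) and 2.21 in WT hearts (SE 0.29, limma adjusted p = 7.64e-05). Without SIRT5OE TAC replicate 3 the change in SIRT5OE hearts was 1.03 (limma adjusted p = 0.0197), and without WT TAC replicate 3 that in WT hearts was 2.46. The annotated exons of Pi16 overlap a gene on the opposite strand, AC162182.1, and whether the counting used strand was not given in the sources used here.

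Scara5, which encodes a scavenger receptor that binds ferritin, moved the other way and gave the largest change of the 10 markers in WT hearts. It had 1190, 1183, 306 and 1163 normalized counts in SIRT5OE TAC hearts, against 2346, 2015 and 2034 in SIRT5OE sham hearts. In WT TAC hearts it had 353, 172, 595 and 140, against 1689, 1883, 1743 and 1691 in WT sham hearts. All TAC hearts were below all sham hearts, and 3 of the 4 SIRT5OE TAC hearts stood close together between the shams and the WT TAC hearts. In SIRT5OE hearts its log2 fold change was -1.34 (SE 0.46, 95% interval -2.31 to -0.36, unadjusted p = 0.0105), which did not pass after adjustment over all kept genes (limma adjusted p = 0.101). Without SIRT5OE TAC replicate 3 it was -0.85 (limma adjusted p = 0.259), and with limma's array weights, which weight hearts by how well they fit their group, it was -1.12 with an adjusted p of 0.0203. In WT hearts Scara5 fell by 2.71 on the log2 scale (SE 0.43, limma adjusted p = 0.000251).

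Dpep1, a membrane dipeptidase that also converts leukotriene D4, was the other marker with a lower level after TAC. It had 2944, 2530, 1408 and 1837 normalized counts in SIRT5OE TAC hearts, against 3739, 3129 and 3427 in SIRT5OE sham hearts. WT TAC hearts had 2065, 1844, 1844 and 2707, against 2832, 3132, 3243 and 2867 in WT sham hearts. No TAC heart reached the sham hearts of its genotype. Its log2 fold change in SIRT5OE hearts was -0.71 (SE 0.20), with a limma adjusted p of 0.0502 just outside the threshold of 0.05, and in WT hearts Dpep1 fell by 0.53 on the log2 scale (SE 0.18, limma adjusted p = 0.035). The WT call ended without any 1 of the 4 WT sham hearts or of WT TAC replicates 1, 2 and 3 (limma adjusted p from 0.0514 to 0.0913), and the SIRT5OE change passed when WT TAC replicate 2, 3 or 4 was left out, or else SIRT5OE TAC replicate 1 or 2 (0.0187 to 0.0484). Without SIRT5OE TAC replicate 3, the lowest heart, the log2 fold change in SIRT5OE hearts was -0.52 (limma adjusted p = 0.133).

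Abca8a, a transporter of the ABC family, had 5588, 4858, 6253 and 6329 normalized counts in SIRT5OE TAC hearts, against 3489, 4564 and 4740 in SIRT5OE sham hearts. In WT TAC hearts it had 5923, 4945, 6050 and 6900, against 4324, 4630, 4482 and 4826 in WT sham hearts. The groups did not overlap in either genotype. Its log2 fold change in SIRT5OE hearts was 0.44 (SE 0.13, limma adjusted p = 0.0599), and in WT hearts it rose by 0.37 on the log2 scale (SE 0.12, limma adjusted p = 0.023). The WT call ended once WT sham replicate 1 was omitted (0.0602), and likewise for WT TAC replicate 4 (0.0742), and the SIRT5OE change passed without WT TAC replicate 2 (0.0394), WT TAC replicate 4 (0.042) or SIRT5OE TAC replicate 2 (0.0336).

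Counted together, 3 of the 10 markers rose and 0 fell after TAC in SIRT5OE hearts, where 3.12% of all kept genes were called higher and 1.86% lower at an adjusted p under 0.05. In WT hearts 6 of 10 rose and 2 fell, where 17.3% of all kept genes were called higher and 16.5% lower. The counts depend on the threshold: before adjustment limma gave p under 0.05 for 6 markers in SIRT5OE and 8 in WT hearts. Abca8a and Dpep1, called only in WT hearts, changed by 0.44 and -0.71 in SIRT5OE and by 0.37 and -0.53 in WT hearts. Pdgfra, Tcf21 and Scara5, also called only in WT hearts, changed more there. The median log2 fold change of the 10 markers was 0.15 in SIRT5OE hearts and 0.35 in WT hearts, beside -0.01 over all kept genes in either. Only Pi16 rose in SIRT5OE hearts by more than 1 on the log2 scale, only Pi16 and Pcolce in WT hearts, and of those that fell only Scara5 did so, in WT hearts. The SIRT5OE calls for Pi16 and Pcolce ended without any 1 of the 3 SIRT5OE sham hearts, with limma adjusted p from 0.0572 to 0.0944 for Pi16 and from 0.0571 to 0.121 for Pcolce.

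**Figure D2:**
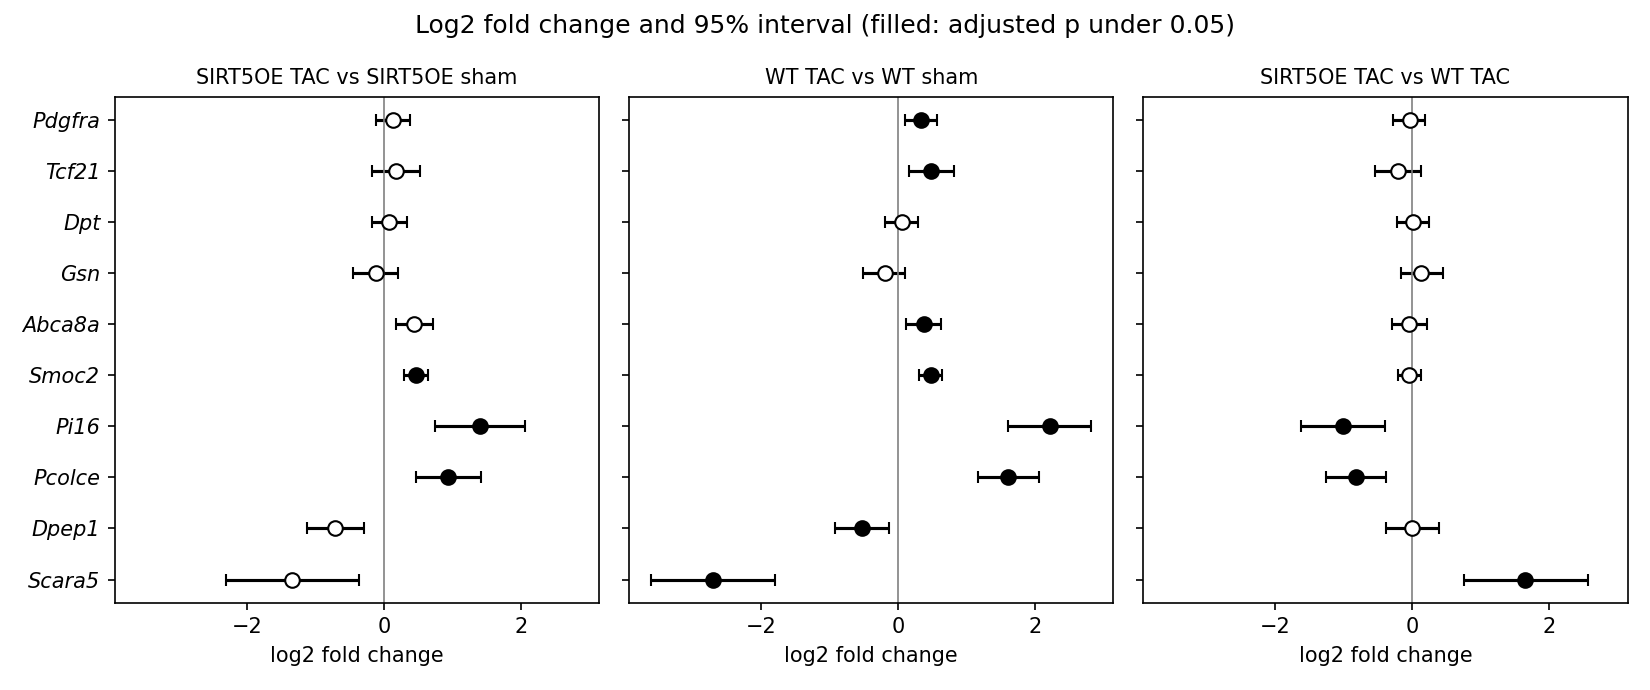
Log2 fold change (x axes) of each marker in SIRT5OE TAC against SIRT5OE sham, WT TAC against WT sham and SIRT5OE TAC against WT TAC hearts, with 95% intervals as bars and filled points where the limma adjusted p was under 0.05. Pi16 and Pcolce lie right of 0 after TAC and left of 0 between the TAC groups, Scara5 lies the other way round, and the other 7 markers lie near 0 between the TAC groups.

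Between the 2 TAC groups, 3 of the 10 markers differed, and each lay nearer to its sham level in SIRT5OE hearts. Scara5 was higher with SIRT5 overexpression, by 1.65 on the log2 scale (SE 0.43, limma adjusted p = 0.0367). Its group means were 961 ± 437 in SIRT5OE TAC and 315 ± 209 in WT TAC hearts (SD, n = 4 each). Pi16 was lower by -1.01 (SE 0.29, limma adjusted p = 0.0472), with 6344 ± 3916 in SIRT5OE TAC and 11879 ± 3472 in WT TAC hearts. Pcolce was lower by -0.82 (SE 0.21, limma adjusted p = 0.0348), with 3900 ± 1560 in SIRT5OE TAC and 6629 ± 1404 in WT TAC hearts. Over all kept genes 3.8% were called higher and 3.43% lower in this comparison, beside 1 and 2 of the 10 markers. The hearts of the 2 groups overlapped for all 3 genes, in each case through SIRT5OE TAC replicate 3.

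These 3 calls lie close to the threshold. Without SIRT5OE TAC replicate 3 the differences were larger, at 2.14 for Scara5 (limma adjusted p = 0.00252), -1.38 for Pi16 (0.00175) and -1.06 for Pcolce (0.00225). They were also larger without WT TAC replicate 3, at 2.04 for Scara5 (0.00386), -1.26 for Pi16 (0.00551) and -0.95 for Pcolce (0.00697). With any 1 of WT TAC replicates 2 and 4 and SIRT5OE TAC replicates 1, 2 and 4 left out, none of the 3 passed, with limma adjusted p from 0.0757 to 0.134 for Scara5, 0.0961 to 0.159 for Pi16 and 0.0642 to 0.129 for Pcolce. Pi16 also missed the threshold without WT TAC replicate 1 (0.0788) and without any 1 sham heart of either genotype (0.058 to 0.0636). Scara5 also missed it with WT sham replicate 1 or 2 left out, and with SIRT5OE sham replicate 2 or 3 left out (0.0505 to 0.0514).

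The other 7 markers gave small differences between the TAC groups, with limma adjusted p of 0.391 or more. The log2 fold change was -0.04 for Pdgfra (95% interval -0.28 to 0.19), -0.21 for Tcf21 (-0.54 to 0.12), 0.01 for Dpt (-0.22 to 0.25) and 0.00 for Dpep1 (-0.38 to 0.39). It was -0.05 for Smoc2 (-0.21 to 0.12), 0.13 for Gsn (-0.17 to 0.44) and -0.05 for Abca8a (-0.30 to 0.21). Smoc2, which rose after TAC in either genotype, had the narrowest of these intervals.

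The interaction of genotype and TAC, which asks whether the change after TAC itself differed between genotypes, was called for 0 of the 10 markers and for 0% of all kept genes in limma. Before adjustment limma gave p under 0.05 for 2206 genes, 13.2% of those kept, among them Scara5 and Pcolce. The interaction of Scara5 was 1.37 (SE 0.63, limma adjusted p = 0.373), that of Pcolce was -0.67 (SE 0.30, limma adjusted p = 0.371), and that of Pi16 was -0.80 (SE 0.42, adjusted p = 0.408). A difference between genotypes in the size of the TAC response was thus not established for any marker. In shams, 0 of the 10 markers differed between SIRT5OE and WT hearts, where 3 genes (0.018% of those kept) were called, and the log2 fold changes were between -0.21 (Pi16) and 0.28 (Scara5) with adjusted p of 1. Scara5 had 2015 to 2346 in SIRT5OE sham and 1689 to 1883 in WT sham hearts, which did not overlap. Its 95% interval was -0.70 to 1.26, and how many of all kept genes show no overlap was not counted. Col1a1, which is no marker here but holds the transgene, had a log2 fold change of 0.03 in shams (95% interval -0.71 to 0.77), with 3387 ± 252 in SIRT5OE sham (n = 3) and 3321 ± 340 in WT sham hearts (SD, n = 4), and was lower in SIRT5OE TAC hearts, against WT TAC hearts, by -1.35 (SE 0.32, limma adjusted p = 0.034). This call of Col1a1 held in 10 of the 15 fits that leave out 1 heart and ended without SIRT5OE TAC replicate 1, 2 or 4 or WT TAC replicate 2 or 4 (limma adjusted p up to 0.124).

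Pi16 and Scara5, both used as markers of quiescent fibroblasts, moved in opposite directions after TAC. They are the marker that rose most and the one that fell most, so a wide spread of their ratio follows from that choice. The ratio of their normalized counts was 3.74, 3.99, 39.9 and 3.44 in SIRT5OE TAC hearts, against 0.911 to 1.12 in SIRT5OE sham hearts. In WT TAC hearts it was 39, 74.9, 11.3 and 101, against 1.15 to 1.6 in WT sham hearts. SIRT5OE TAC replicate 3 had a ratio within the range of the WT TAC hearts, and the other 3 SIRT5OE TAC hearts were below all WT TAC hearts and above all shams.

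**Figure D3:**
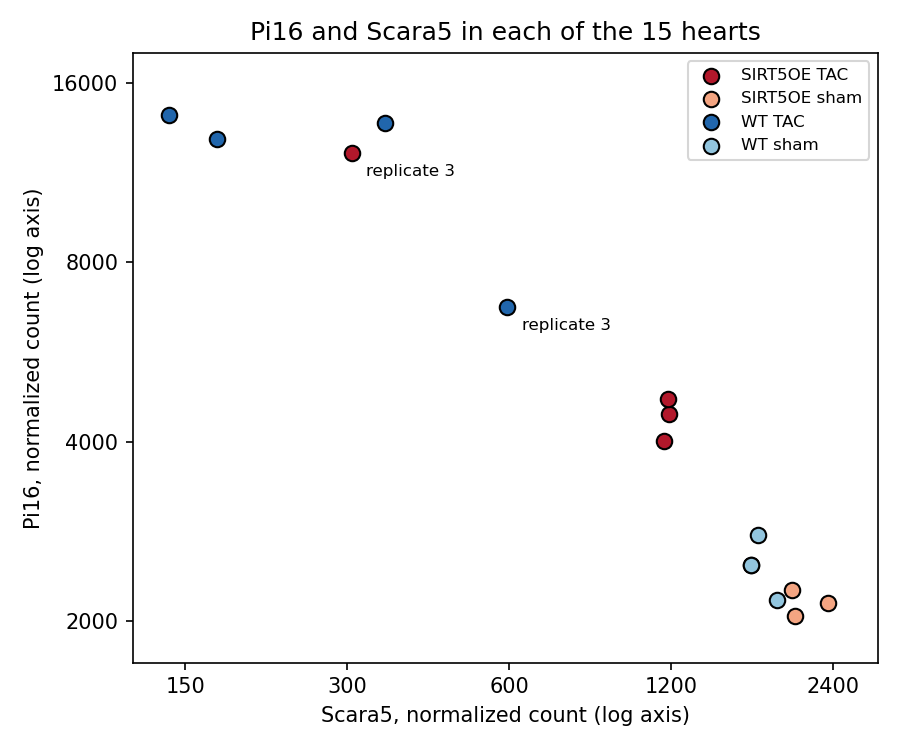
Normalized counts of Pi16 (y axis, log scale) against Scara5 (x axis, log scale) in the 15 hearts, coloured by group. The 7 sham hearts lie at the lower right, 3 SIRT5OE TAC hearts between, and the 4 WT TAC hearts with SIRT5OE TAC replicate 3 at the upper left. The points of 2 WT sham hearts (1689 and 1691 for Scara5) coincide.

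The likeness of 2 genes over the 15 hearts was measured as the Euclidean distance of their centred and scaled log2 values, which is 0 for the same profile, 5.29 for unrelated and 7.48 for opposite profiles. Among the markers themselves Pi16 and Pcolce were close, at 0.682, while Scara5 lay at 7.42 from either, near the opposite end of the scale. Scara5 was nearer to Dpep1 (3) and Gsn (3.61) than to Smoc2 (7.04), Tcf21 (6.9), Abca8a (6.9) or Pdgfra (6.64). Over all kept genes the nearest to Pi16 were Pfkp (0.5), a phosphofructokinase of glycolysis, Nppa (0.507), atrial natriuretic peptide, and Col8a2 (0.516), a network-forming collagen chain. Those nearest to Scara5 were Ces1d (0.433), a carboxylesterase, Dbt (0.523), a subunit of the branched-chain ketoacid dehydrogenase, and P2ry1 (0.553), a nucleotide receptor. Nearest to Pcolce were Loxl1 (0.424), a collagen and elastin cross-linking enzyme, Carhsp1 (0.454) and Capg (0.491), an actin-capping protein. Nppa is mainly a cardiomyocyte gene, and in whole-heart RNA a shared profile does not place 2 genes in the same cell. Smoc2 had Cks2 (0.871), Acta1 (0.956) and Colec12 (1.15) nearest, Abca8a had Scarb1 (1.33), Cygb (1.52) and Arsg (1.59), and Dpep1 had Spg7 (1.35), the pseudogene Gm6293 (1.39) and C1qtnf4 (1.42). The nearest genes of Pdgfra (Spin1, Sorcs1 and Adcy2), Tcf21 (Hr, Med27 and Dffa), Gsn (Olfr1393, Dnd1 and Mrpl2) and Dpt (Txnl4a, Wnk1 and Atxn7l3b) lay at 1.57 or more.

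Since TCF21 is a basic helix-loop-helix factor, whose dimers in human vascular cells bind the E-box CAGCTG, the promoters of the markers were searched for these letters, which read the same on both strands and are 1 form of the general E-box CANNTG. RefSeq promoter windows (GRCm38.p6, 250 bases before to 50 after the start site) matched 8 of the 10 markers by symbol, all but Scara5 and Smoc2, with 10 windows since Gsn has 3. CAGCTG was in a window of 5 of the 8 genes, namely Pi16, Dpt, Dpep1, Gsn and Pcolce, and in none of Pdgfra, Tcf21 and Abca8a. Of 32851 windows of this length 16.3% hold it. That is a share of windows, not of genes, and Gsn had 3 windows in which to be counted. The difference was not tested. The 4 windows below are those of the single-window genes with CAGCTG. They set Pi16 and Pcolce, whose levels rose together, beside Dpt, which did not pass the test, and Dpep1, which fell in WT hearts. Capitals mark CAGCTG and 4 further motifs searched on both strands: the CCAAT box, held by 37.4% of all windows, the TATA box TATAAA, held by 13.6%, the GC box GGGCGG, held by 35.7% and here on the other strand, and the TEAD motif CATTCC, held by 14.7%.
Pi16 promoter, chr17:29318632-29318931, plus strand: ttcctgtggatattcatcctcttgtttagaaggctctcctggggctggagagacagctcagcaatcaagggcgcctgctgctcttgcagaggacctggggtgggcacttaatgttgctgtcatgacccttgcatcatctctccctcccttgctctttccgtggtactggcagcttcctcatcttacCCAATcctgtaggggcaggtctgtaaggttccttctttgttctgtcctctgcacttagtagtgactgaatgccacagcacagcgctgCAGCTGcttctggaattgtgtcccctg
Pcolce promoter, chr5:137611355-137611654, minus strand: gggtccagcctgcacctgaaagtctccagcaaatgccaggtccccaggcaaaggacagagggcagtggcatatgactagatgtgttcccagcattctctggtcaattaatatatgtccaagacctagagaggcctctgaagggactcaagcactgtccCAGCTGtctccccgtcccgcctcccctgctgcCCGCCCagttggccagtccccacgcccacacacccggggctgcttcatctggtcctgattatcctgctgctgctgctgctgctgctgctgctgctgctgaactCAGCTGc
Dpt promoter, chr1:164796413-164796712, plus strand: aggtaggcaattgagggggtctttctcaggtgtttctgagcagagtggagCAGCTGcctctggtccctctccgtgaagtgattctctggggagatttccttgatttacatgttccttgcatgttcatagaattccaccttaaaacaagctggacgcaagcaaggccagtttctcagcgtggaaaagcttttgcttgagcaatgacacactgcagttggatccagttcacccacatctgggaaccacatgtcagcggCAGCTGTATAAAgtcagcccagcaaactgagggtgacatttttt
Dpep1 promoter, chr8:123185985-123186284, plus strand: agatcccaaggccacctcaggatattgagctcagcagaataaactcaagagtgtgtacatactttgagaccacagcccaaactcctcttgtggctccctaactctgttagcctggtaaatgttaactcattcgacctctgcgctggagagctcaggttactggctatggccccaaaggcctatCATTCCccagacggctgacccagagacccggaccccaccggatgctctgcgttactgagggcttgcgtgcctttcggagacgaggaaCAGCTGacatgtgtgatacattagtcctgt

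The E-box of Pi16 lies just after the start site, as do that of Dpep1, the second one of Pcolce and the second one of Dpt, which runs straight into TATAAA. The windows of Pi16 and Pcolce share CAGCTG but none of the other motifs marked in capitals, and TGANTCA, the AP-1 motif that 7.81% of windows hold, was in none of the 10. The letters describe these windows and carry no evidence of binding. The start sites used by RefSeq for Pi16 and Pcolce lie inside the longer gene models of the GENCODE vM21 annotation of the same build (Pi16 chr17:29317680-29330593, Pcolce chr5:137605103-137613784). The other markers lie at chr5:75152292-75198215 (Pdgfra), chr10:22817281-22820174 (Tcf21), chr14:65666403-65764826 (Scara5), chr1:164796644-164824266 (Dpt), chr8:123186242-123201812 (Dpep1), chr17:14279506-14404790 (Smoc2), chr2:35256380-35307892 (Gsn) and chr11:110025634-110095978 (Abca8a). Normalized counts are of whole genes, with exons and untranslated regions of all transcripts together. Of the 10, Pdgfra, Pi16 and Pcolce have exons that overlap another annotated gene.

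Summed without Gsn, the markers had 32619 ± 5041 normalized counts in SIRT5OE TAC, 25280 ± 520 in SIRT5OE sham, 40699 ± 4863 in WT TAC and 25189 ± 207 in WT sham hearts (SD; n = 4, 3, 4 and 4). With Gsn the sums overlapped, at 80508 to 93568 in SIRT5OE TAC, 81301 to 91741 in SIRT5OE sham, 75678 to 105510 in WT TAC and 79676 to 87773 in WT sham hearts. In WT hearts the means of Pi16 and Pcolce increased most, from 2478 to 11879 and from 2135 to 6629. Scara5 and Dpep1 were lower after TAC. In whole-heart RNA, fewer or more fibroblasts and less or more RNA of a gene per fibroblast cannot be told apart. Further lists of fibroblast genes were set beside the markers. Of 32 other genes of resident fibroblasts, 8 rose and 0 fell after TAC in SIRT5OE hearts, and 16 rose and 3 fell in WT hearts, with medians of 0.30 and 0.52 on the log2 scale. Of all kept genes 3.12% rose and 1.86% fell in SIRT5OE hearts, and 17.3% rose and 16.5% fell in WT hearts. With 1 heart left out, 1 to 10 of the 32 rose in SIRT5OE hearts (1 without SIRT5OE sham replicate 3) and 14 to 18 in WT hearts, where 2 to 5 fell. The genes with the smallest adjusted p included Cd248 (endosialin), Col14a1 (a fibril-associated collagen) and, in WT hearts, Mfap5, a microfibril protein that also marks the adventitial state, which rose by 3.46 (SE 0.43, limma adjusted p = 5.88e-05). Against WT TAC hearts, Mfap5 was lower in SIRT5OE TAC hearts, by -1.62 (SE 0.43, limma adjusted p = 0.0383), one of 6 of these genes that were lower, with 1 higher, where 3.43% of all kept genes were lower and 3.8% higher. The call of Mfap5 held in 4 of the 15 fits that leave out 1 heart (limma adjusted p from 0.00175 to 0.144). Of the 32 genes, 11 were lower and 3 higher when SIRT5OE TAC replicate 3 was dropped, 10 were lower and 1 higher when WT TAC replicate 3 was, and 0 were lower without SIRT5OE TAC replicate 1, 2 or 4 or WT TAC replicate 2 or 4. The 3 that fell in WT hearts, named after their values were seen, were Clec3b (tetranectin; 938 ± 621 in WT TAC and 1774 ± 246 in WT sham hearts), Angptl1 (35.6 ± 25.9 in WT TAC and 162 ± 51 in WT sham hearts) and Osr1 (54.6 ± 18.1 in WT TAC and 115 ± 21.1 in WT sham hearts; SD, n = 4 each).

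Of 18 genes of activated fibroblasts, 15 rose and 0 fell after TAC in SIRT5OE hearts and 16 rose and 0 fell in WT hearts, with medians of 2.69 and 4.12, beside the 3.12% and 17.3% of all kept genes that rose. With 1 heart left out, 6 to 16 rose in SIRT5OE hearts (6 without SIRT5OE sham replicate 3) and 16 in WT hearts. Postn rose by 3.54 in SIRT5OE hearts (SE 0.52, limma adjusted p = 0.00386) and by 4.93 in WT hearts (SE 0.48, limma adjusted p = 1.72e-05). Between the TAC groups 6 of the 18 were lower and 0 higher in SIRT5OE hearts (median -1.41), among them Meox1, a homeobox factor of activated fibroblasts, at -1.45 (SE 0.30, limma adjusted p = 0.0289). Col1a1, which holds the transgene, is also among the 6, and the part of the insertion in its difference was not tested. Postn did not pass, at -1.39 (SE 0.48, limma adjusted p = 0.0758). Of all kept genes 3.43% were lower. The 6 became 15 when either SIRT5OE TAC or WT TAC lost its replicate 3, and 0 without SIRT5OE TAC replicate 2 or 4 or WT TAC replicate 2 or 4, the hearts without which the call of Meox1 also ended (limma adjusted p up to 0.114). Summed, the 18 genes had 77787 to 375421 normalized counts in SIRT5OE TAC, 26306 to 31747 in SIRT5OE sham, 174036 to 518302 in WT TAC and 27822 to 32614 in WT sham hearts, and the highest SIRT5OE TAC value was that of replicate 3.

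**Figure D4:**
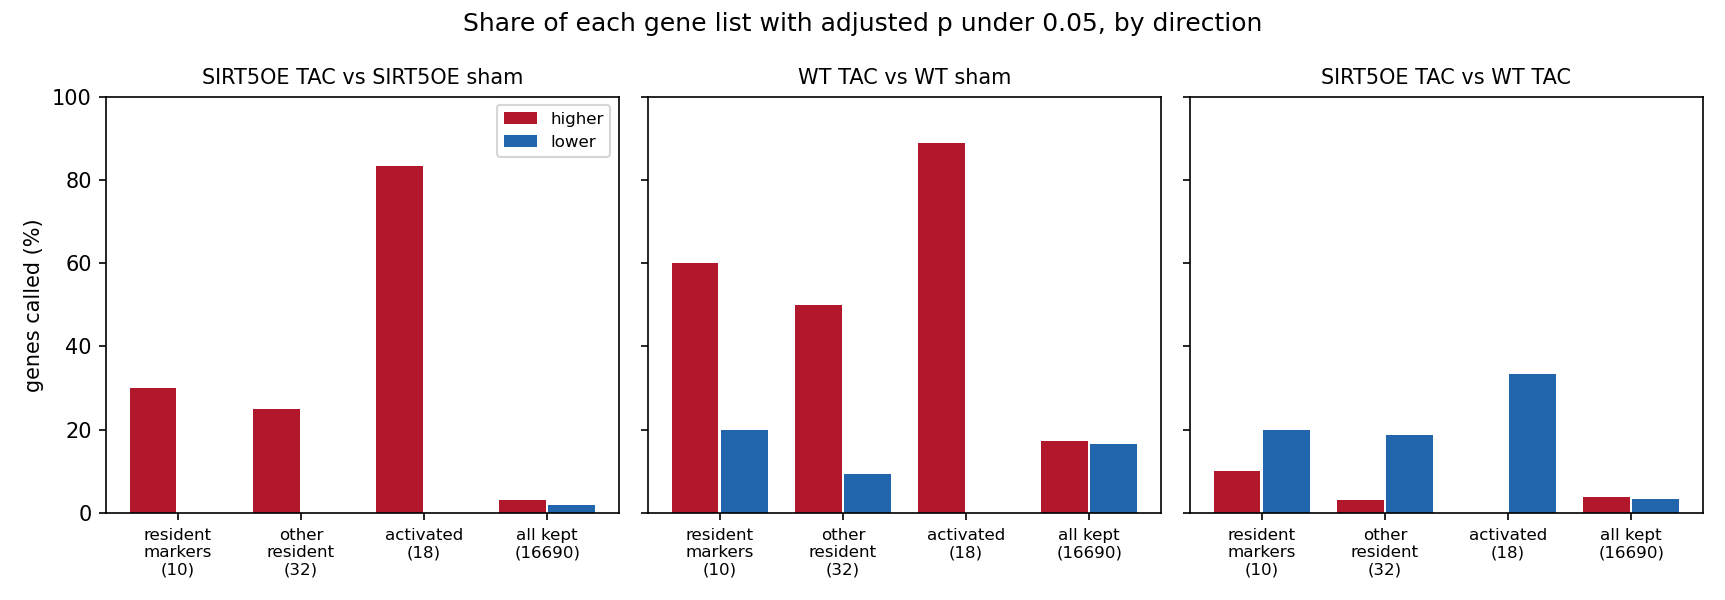
Share of genes called at a limma adjusted p under 0.05 (y axis, %), higher in red and lower in blue, among the 10 markers, 32 other resident fibroblast genes, 18 activated fibroblast genes and all 16690 kept genes, for SIRT5OE TAC against SIRT5OE sham, WT TAC against WT sham and SIRT5OE TAC against WT TAC hearts. The markers had genes in both directions in WT hearts after TAC (6 higher, 2 lower), the activated genes in 1 direction (16 higher, 0 lower).

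Markers of other cell types were counted in the same comparisons, and their part in the results above was not tested. A list's name need not hold for each of its genes in whole-heart RNA. Des, on the pericyte and smooth muscle list, is also expressed in cardiomyocytes, and its part in that list's sums was not separated. The shares of all kept genes to set beside them are 3.12% higher and 1.86% lower after TAC in SIRT5OE hearts, 17.3% and 16.5% in WT hearts, and 3.8% and 3.43% in SIRT5OE TAC against WT TAC hearts. After TAC in SIRT5OE hearts 1 of 10 macrophage and monocyte markers rose and 0 fell, with summed levels of 18470 to 28373 normalized counts in SIRT5OE TAC and 14978 to 18609 in SIRT5OE sham hearts. All 10 had a positive log2 fold change there (median 0.49, beside 0.87 in WT hearts). Before adjustment limma gave p under 0.05 for 8 of them, and with 1 heart left out 0 to 5 were called higher. In WT hearts 7 of 10 rose and 0 fell, with sums of 25358 to 28405 in WT TAC and 16058 to 18018 in WT sham hearts. Of 10 cardiomyocyte markers 0 passed after TAC in SIRT5OE hearts, with sums of 2660140 to 3617772 in SIRT5OE TAC and 3467966 to 3697195 in SIRT5OE sham hearts, and 1 rose and 6 fell in WT hearts, with sums of 1800051 to 3055294 in WT TAC and 3471751 to 4088569 in WT sham hearts. Pericyte and smooth muscle markers had 1 of 10 higher and 0 lower after TAC in SIRT5OE hearts, and 5 higher and 1 lower in WT hearts, with summed levels of 185685 to 266398 in SIRT5OE TAC, 149881 to 158491 in SIRT5OE sham, 218034 to 481763 in WT TAC and 145477 to 167549 in WT sham hearts. Endothelial markers had 0 of 10 called in SIRT5OE hearts and 1 lower in WT hearts. Genes of valve and chondrogenic fibroblasts had 5 of 9 kept genes higher and 0 lower after TAC in SIRT5OE hearts, and 7 higher and 1 lower in WT hearts. Comp and Fmod, among those higher in either genotype, are also on the list of activated fibroblast genes and were counted there too. Schwann cell markers had 1 of 10 higher and 1 lower in SIRT5OE hearts, and 1 higher and 3 lower in WT hearts. Of 10 epicardial and mesothelial markers 0 passed in SIRT5OE hearts and 1 fell in WT hearts. Adipocyte markers, of which 6 of 10 were kept, had 2 lower in SIRT5OE hearts and 3 lower in WT hearts, while Adipoq, the defining one, stood at 0 to 6.69 normalized counts in all hearts. In SIRT5OE TAC against WT TAC hearts, 2 genes of the pericyte and smooth muscle list were lower (Cspg4 and Des), as were 2 macrophage markers (C1qa and C1qb). Valve and chondrogenic genes had 1 higher (Wif1) and 2 lower (Comp and Prg4). Thrsp was the 1 adipocyte marker that was higher, and 0 cardiomyocyte, endothelial, epicardial and Schwann cell markers passed in limma. Those 4 lists had 5, 2, 1 and 1 markers at p under 0.05 before adjustment, and without WT TAC replicate 3 there were 5 cardiomyocyte markers higher, with 4 higher without SIRT5OE TAC replicate 3. The calls between the TAC groups depended on single hearts. With 1 heart left out, 0 to 4 pericyte and smooth muscle and 0 to 3 macrophage markers were lower. Valve and chondrogenic genes had 0 to 6 lower and 0 to 1 higher, and adipocyte markers 0 to 1 higher. None of the genes named for these lists was called without SIRT5OE TAC replicate 2 or 4 or WT TAC replicate 2 or 4.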

How the data were processed

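RNA of 15 whole mouse hearts was sequenced on a HiSeq4000, checked with FastQC, and assigned by the authors with kallisto (0.46.0 in the study's methods, 0.43.1 in the submitters' processing notes, which give the build mm10) to Ensembl mouse cDNA. The authors summed transcripts to genes with tximport 1.18.0 and scaled the counts with DESeq2. The values deposited by the authors are these normalized counts, a signal per gene in each of 15 hearts. Between 4.9% and 15.9% of a heart's values were whole multiples of a single step (tolerance 0.02), so reads were not recovered and no count model was run.

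The 16690 genes with 10 or more normalized counts in 3 or more hearts were kept. Values were taken as log2(normalized count + 1), a scale that understates changes of low genes, and limma 3.58.1 (R 4.3.3) fitted 4 group means with eBayes and a mean-variance trend, the design chosen for the study's groups. All p-values were adjusted by Benjamini-Hochberg over the kept genes, and a call is an adjusted p under 0.05. All groups share 1 estimate of the spread, and each 95% interval comes from it. The fit was tested on simulated data. Levels per kb divide by the GENCODE vM21 principal transcript, and promoters are RefSeq windows. Tables used pandas 2.3.3 in Python 3.11.15.

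The 10 markers and the 10 comparison lists were chosen with earlier results of these data known. Those lists are other resident and activated fibroblast genes, cardiomyocyte, endothelial, pericyte and smooth muscle, macrophage and monocyte, epicardial and mesothelial, adipocyte and Schwann cell markers, and valve and chondrogenic fibroblast genes. Genes named are the 10 markers, up to 4 of smallest adjusted p per list and comparison, the 3 nearest profiles per marker, Sirt5 and Col1a1. Clec3b, Angptl1, Osr1, Adipoq, Fbxo24 and the genes of other cell type lists called between the TAC groups were named after their values were seen. The 26 alternatives varied pseudocount, filter, scaling, samples, block, weights and trend, and left out each heart. Each heart is 1 mouse of its group.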

Additional observations from a re-analysis of the deposited data

Results flagged for a closer look

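In 6 of 30 marker and group combinations of 4 hearts, 1 heart lay far from the others (the gap to its neighbour over the group's range exceeded 0.829). Chance flags about 1 in 20 groups of independent, normally distributed values. The 30 combinations reuse the same hearts, and several markers have like or opposite profiles, so that rate cannot be set against the count of 6. SIRT5OE TAC replicate 3 was high for Pi16 (12202 normalized counts, gap 0.912 of the range) and low for Scara5 (306, gap 0.97). WT TAC replicate 3 was low for Pi16 (6730, gap 0.832). Smoc2 was low in SIRT5OE TAC replicate 2 (5204, gap 0.854), Gsn in WT TAC replicate 2 (35123, gap 0.839) and Pdgfra in WT sham replicate 3 (1769, gap 0.857).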

How the results depend on the processing

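Over 26 alternatives, 1208 of 1290 log2 fold changes of the markers kept their side of the threshold, 41 of them with another sign but called in neither fit, 69 lost and 13 gained a call, and 0 called values changed sign. Between the TAC groups, of 26 alternatives Pcolce passed in 17, Scara5 in 13 and Pi16 in 9, with limma adjusted p from 0.00175 (Pi16) to 0.192 (Pi16). Without a filter on low values, with the 2 groups fitted alone, with the replicate number as a block and without the mean-variance trend, 0 members were called higher and 0 lower between the TAC groups, and leaving out 1 heart gave 0 to 1 higher and 0 to 2 lower. The calls among all genes went the same way: 635 higher and 573 lower became 135 and 96 without the filter, 2 and 1 for 2 groups alone, 18 and 2 under the block, 30 and 12 without the trend, and, with 1 heart left out, from 5 to 1691 higher and from 0 to 1681 lower. Scaling without mitochondrial transcripts gave 482 higher and 822 lower.

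In WT hearts after TAC, leaving out 1 heart gave 3 to 6 members higher and 1 to 2 lower, no filter and no trend gave 1 lower, and a log2 fold change over 1 as well left 2 higher and 1 lower. In SIRT5OE hearts the 3 higher members became 1 under the block, without the trend and with a log2 fold change over 1, and 0 to 4 with 1 heart left out. There the 0 lower members became 1 with a pseudocount of 5, a stricter filter or scaling without mitochondrial transcripts, 2 with array weights and 0 to 1 with 1 heart left out. Under the block, limma adjusted p in SIRT5OE hearts was 0.0517 for Pi16 and 0.057 for Pcolce. Same-numbered hearts correlated between -0.298 and 0.0779 in their deviations from group means. With 3 or 4 hearts per group this cannot show whether hearts shared a batch. The paper lists batches of TAC mice, and the labels do not say to which a sequenced heart belonged. The count model on whole reads was not run. No member had a called interaction in any alternative, while leaving out WT TAC replicate 3 called 28 genes higher and 17 lower over all genes. With 3 or 4 hearts per group, the number of hearts limits what can be called.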
